A study of Macaca fascicularis with 2 samples.

Results

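The 7 genes described here are *KRT19*, *CDH2*, *CDH11*, *CDH13*, *NCAM1*, *CTNNB1* and *GJA1*, which encode an intermediate filament protein and proteins that join cells to each other. They were chosen by symbol, with earlier results of these data known. All 7 were among the 21371 genes of the count matrix, and none was lost to a limit on low values. Their reads were followed in 342 notochordal cells (NCs), defined as cells with 5 or more reads of *TBXT*, and in 5311 other cells, which together made up the 5653 cells kept. *TBXT* encodes brachyury, the transcription factor that marks the notochord, and its own level is therefore set by the definition of the classes.

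The cells were digested from articular cartilage (AC) and from nucleus pulposus (NP), the gelatinous core of the intervertebral disc, of wild-type male cynomolgus monkeys (*Macaca fascicularis*) that were 3 years old. The labels name 3 tissue samples, the AC and NP of 1 monkey and the AC of another, which were pooled and sequenced as 1 library with TAS-seq, a single-cell method that reads whole transcriptomes from barcoded beads. Antibody tags on the biotinylated cell surface split the cells into 4 tags, A951 to A954, and no source used here ties a tag to a tissue. Live, tag-stained cells were sorted, so the shares of cells below are those after digestion and sorting.

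The nucleus pulposus forms from the notochord, and young discs of many mammals still hold large, vacuolated cells of notochordal character beside smaller chondrocyte-like cells. Notochordal cells lie in clusters held together by junctions, and keratin filaments, which otherwise mark epithelia, are among their best known features. Classical cadherins such as N-cadherin bind the same cadherin on the next cell and hold beta-catenin at the membrane, which also carries WNT signals to the nucleus, while connexins form the channels of gap junctions. Articular chondrocytes sit apart from each other in matrix.

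NCs were unevenly spread over the tags. Tag A952 held 247 NCs, or 22.0% of its cells (exact binomial interval 19.6% to 24.5%), and tag A951 held 69, or 6.94%. Tag A953 held 14 NCs, or 1.02% of its cells, and tag A954 held 12, or 0.557%. The other cells numbered 926, 878, 1363 and 2144 in tags A951 to A954. Depth was close between the classes, with a median of 186624 reads and 4061 genes per NC and of 199036 reads and 3818 genes per other cell. The 14 NCs of A953 were deeper, with a median of 350024 reads. No barcode number was shared between tags. Levels are given as pooled reads per 1000000 reads (rpm), that is all reads of a gene in a class over all reads of that class, and a log2 ratio is the log2 of the rpm in NCs over the rpm in other cells. All these values come from 1 library, cells are not replicates, and no test between the classes was made. Intervals cover counting error only, and since the method counts PCR copies without molecular identifiers, they are narrower than the error of the molecules captured.

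Of the 7 members, 4 were at least 2-fold higher in NCs (*KRT19*, *CDH2*, *NCAM1* and *CDH13*), against 22.9% of the 13498 genes that were found in 1% or more of the cells. None was at least 2-fold lower, against 12.0% of all genes. The members were chosen with earlier results of these data known, so these counts describe them and are no independent check. *KRT19* was also named by the authors as a marker of NCs in data that include these cells. The median log2 ratio was 3.24 over the members and 0.25 over all genes, so ratios here are read against a centre that lies 0.25 above equality. Within tag A951, where 28.9% of all genes were 2-fold higher, 5 members were past that fold, with *GJA1* as the fifth. The same count of 5 was found within tag A952, where the share of all genes was 25.1%. In A953 4 members were 2-fold higher, against 24.5% of all genes. In A954 3 were 2-fold higher, against 25.1%, and *CDH11* was 2-fold lower, against 27.6% of all genes.

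**Figure D1:**
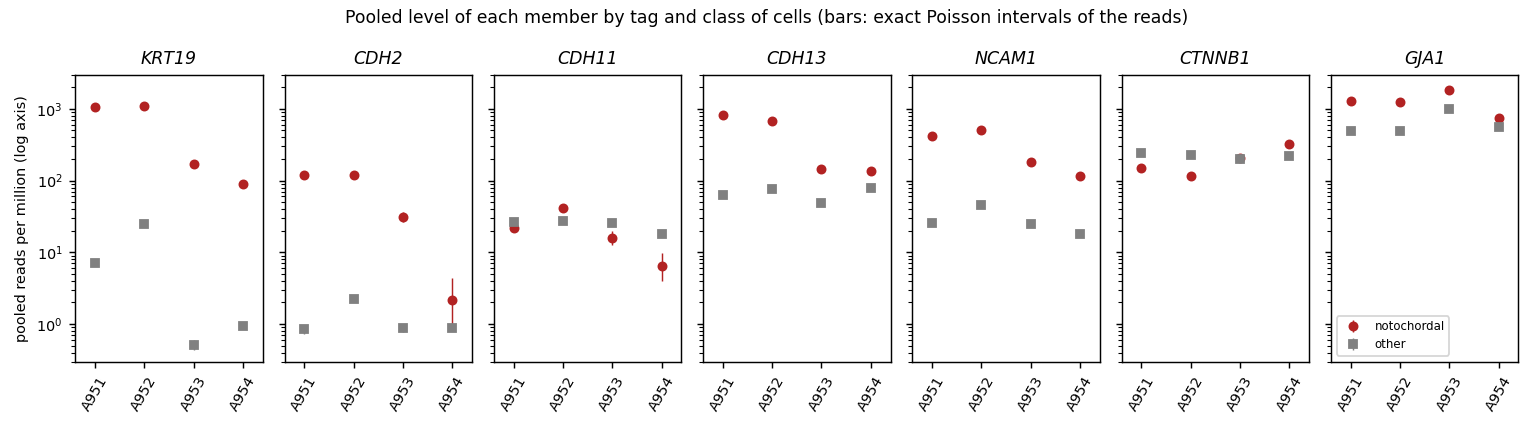
Pooled level of the 7 members in rpm (log axis) in notochordal cells (circles) and other cells (squares) of each tag, with bars for the exact Poisson interval of the reads. The classes lie far apart for KRT19 in all 4 tags, from 89.9 to 1081 rpm in NCs against 0.515 to 24.6 rpm in other cells, and cross over between tags for CTNNB1 and CDH11.

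*KRT19*, the keratin that encodes cytokeratin 19, had the widest gap of the members with tags pooled and ranked 8th of the 13498 genes by log2 ratio. In NCs its level was 1047 rpm in tag A951, 1081 rpm in tag A952, 169 rpm in tag A953 and 89.9 rpm in tag A954. In other cells the level was 7.00, 24.6, 0.515 and 0.950 rpm in the same order. The lowest NC value was thus above the highest value of other cells, and the counting intervals of the classes did not overlap in any tag. Pooled over tags, *KRT19* stood at 967 against 5.11 rpm, or 189-fold higher, which is 7.56 on the log2 scale (7.53 to 7.60). By tag the ratio was 7.22 in A951, 5.46 in A952, 8.36 in A953 and 6.56 in A954. In A953 and A954 few cells carried the level: in A954, 77.6% of the *KRT19* reads of NCs came from 1 cell.

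Nearly every NC of A951 and A952 had *KRT19*. At least 5 reads were found in 97.1% of NCs in A951 and 95.5% in A952, but in 5 of 14 NCs in A953 and 2 of 12 in A954. Over all tags the share was 90.6% of NCs (87.1% to 93.5%) and 0.998% of other cells (0.748% to 1.30%). The middle NC had 891 rpm of *KRT19*, with quartiles at 446 and 1519 rpm. With every cell thinned to 50000 reads, which left out 12 NCs and 195 other cells that were shallower, 91.5% of NCs and 3.50% of other cells had a *KRT19* read.

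Low counts of *KRT19* were found in the other cells of every tag. Between 1 and 4 reads were found in 9.29% of the other cells in A951, 7.29% in A952, 9.24% in A953 and 10.6% in A954. The share was lowest in A952 (5.66% to 9.21%), and its interval did not reach that of A954 (9.36% to 12.0%). *TBXT* itself was found at 1 to 4 reads in 7.13%, 10.1%, 9.17% and 11.4% of the same cells. Counted over the cells with fewer than 5 reads alone, *KRT19* was at 0.573, 0.491, 0.481 and 0.541 rpm in A951 to A954, so the tags that differed most in their share of NCs had near equal low-level signal. Such reads were treated as background, and cells with 5 or more reads are counted below.

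The 5-read limit on *KRT19* and *TBXT*, a split chosen after the data were seen, gave 4 sets of cells. Both genes passed in 310 cells, 67 of A951, 236 of A952, 5 of A953 and 2 of A954. Neither passed in 5258 cells. *KRT19* alone passed in 53 cells, 35 of them in A952, 9 in A951, 8 in A954 and 1 in A953, and these 53 cells held 89.8% of all *KRT19* reads of the other cells. *TBXT* alone passed in 32 cells, of which 19 were in A953 and A954.

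**Figure D2:**
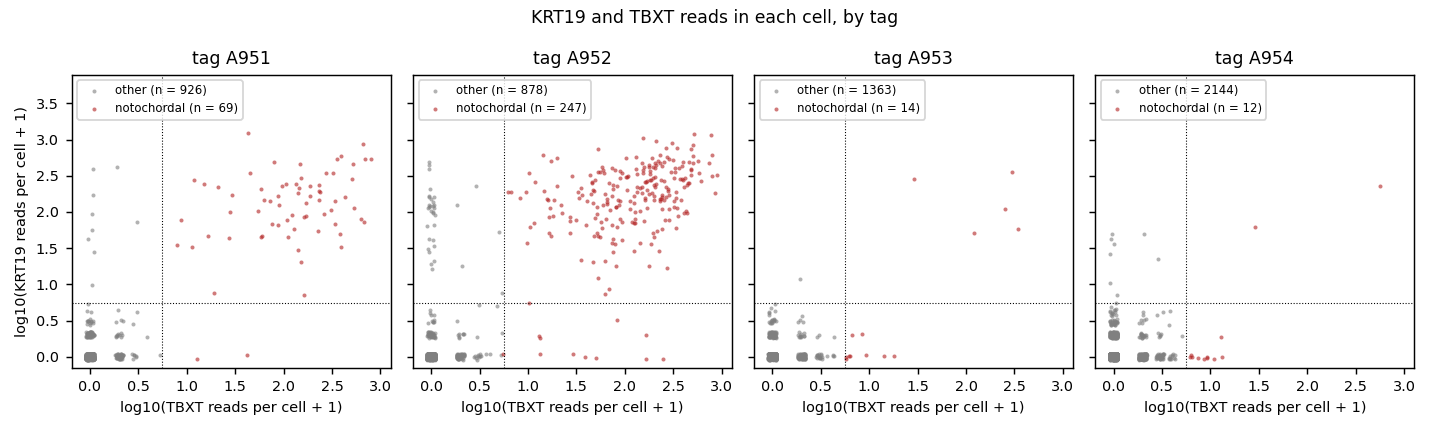
Reads of KRT19 (vertical) against reads of TBXT (horizontal) in each cell, both as log10(reads + 1), in 1 panel per tag, with dotted lines at the limit of 5 reads and a small random shift so that points can be told apart. NCs of A951 and A952 lie mostly in the upper right, with 67 and 236 cells past both limits, whereas 9 of 14 NCs in A953 and 10 of 12 in A954 lie in the lower right.

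The *KRT19*-only cells were compared with the cells that had neither gene, on genes that did not define the sets. Here *APOE*, which encodes apolipoprotein E, stood at 7448 rpm against 85.7 rpm in cells with neither gene and 10894 rpm in cells with both. *C3orf49*, a gene without a well-known function, stood at 1236 rpm against 2.54 rpm. Among the members, *NCAM1* was at 381 rpm against 22.4 rpm, *CDH13* at 392 against 65.3 rpm and *CDH2* at 26.5 against 0.885 rpm. The last value came from A952, at 44.8 rpm, and the 8 *KRT19*-only cells of A954 had 0.421 rpm of *CDH2*, below the 0.888 rpm of cells with neither gene. The single cell of A953 had no read of *CDH2* or *NCAM1* and 32.9 rpm of *CDH13*. *COL2A1*, the main collagen of cartilage, was at 6653 rpm, between the 1269 rpm of cells with both genes and the 20184 rpm of cells with neither. These cells were shallower, with a median of 124201 reads against 186370 in cells with both genes, and the part of depth in a missing *TBXT* call was not tested.

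The *TBXT*-only cells stood close to the cells with neither gene on some of the same genes. *COL2A1* was at 17774 rpm in them and *CTNNB1* at 256 rpm, and the latter was at 220 rpm in cells with neither gene. With tags pooled, *APOE* was at 731 rpm, *C3orf49* at 303 rpm and *NCAM1* at 71.2 rpm. All were above the cells with neither gene and far below the cells with both. By tag, *NCAM1* was below the cells with neither gene in A951 (0 against 22.65 rpm) and A953 (11.9 against 25.2 rpm). It was above them in A952 (123 against 32.65 rpm) and A954 (113 against 17.4 rpm). The middle *TBXT*-only cell had 11 *TBXT* reads, against 142.5 in the cells with both genes. The NC values of A953 and A954 therefore rest on sets in which 19 of the 26 cells lacked *KRT19* at this limit.

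The members were next followed over steps of *TBXT* reads. The share of cells with 5 or more *KRT19* reads was 0.898% of 4787 cells with no *TBXT* read and 1.91% of 524 cells with 1 to 4 reads. It was 37.5% of 24 cells with 5 to 9 reads, 70.0% of 30 cells with 10 to 19, 94.9% of 98 cells with 20 to 99 and 98.4% of 190 cells with 100 or more. These steps also compare tags. Of the 24 cells with 5 to 9 reads, 7 were in A953 and 7 in A954, against 4 and 1 of the 190 cells. *CDH2* went from 0.292% in cells without *TBXT* to 46.8% in the top step, and *NCAM1* from 8.44% to 78.4%. *CTNNB1* had its lowest share, 48.98%, at 20 to 99 *TBXT* reads, against 73.2% in cells with none, but that step was also the shallowest, with a median of 136750 against 191902 reads. Its *CTNNB1* level, 161 rpm, was above the 114 rpm of the top step. The cells with 1 to 4 *TBXT* reads were deeper, with a median of 294444 reads.

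**Figure D3:**
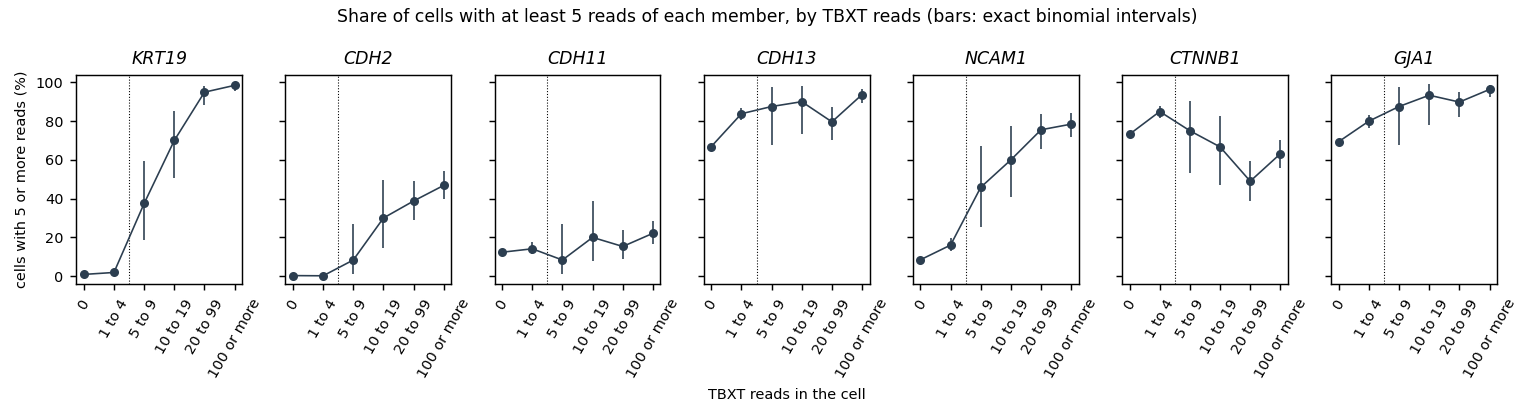
Share of cells with 5 or more reads of each member (vertical, percent) by the number of TBXT reads in the cell (horizontal), with exact binomial intervals and a dotted line at the limit that defines NCs. KRT19 climbs from 0.898% to 98.4%, CDH2 and NCAM1 climb more slowly, and CDH11 stays between 8.33% and 22.1%. The mix of tags differs between the steps.

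*CDH2*, which encodes N-cadherin, the classical cadherin of mesenchymal and neural tissue, ranked 32nd of all genes. Its level in NCs was 120 rpm in A951, 118 rpm in A952, 31.0 rpm in A953 and 2.14 rpm in A954. Other cells had 0.846, 2.24, 0.874 and 0.886 rpm. By pooled level the first 3 tags were far apart between the classes. In A953 this rests on few cells: 4 of 14 NCs had a *CDH2* read, and 41.9% of the reads came from 1 cell. The 9 *TBXT*-only NCs of that tag had none. The NC value of A954 rests on 7 reads and its interval, 0.860 to 4.41 rpm, reaches that of the other cells. The pooled levels of 107 and 1.07 rpm gave a log2 ratio of 6.65 (6.57 to 6.73). By tag it was 7.14, 5.72, 5.15 and 1.27, so that in A952 it was wider than the 5.46 of *KRT19*. Even so, only some NCs had it: 40.4% of NCs and 0.282% of other cells had 5 or more reads, and the middle NC had 6.82 rpm. Of 15 other cells with 5 or more reads, 9 were in A952, and 8 of the 15 also had 5 or more *KRT19* reads. Without the cells in which a single one of *KRT19* and *TBXT* passed, the log2 ratio was 7.08.

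*NCAM1*, the neural cell adhesion molecule of the immunoglobulin family, was the third by fold. NCs had 411 rpm in A951, 513 rpm in A952, 180 rpm in A953 and 114 rpm in A954. In A953, 67.6% of the *NCAM1* reads of NCs came from 1 cell, and the middle NC had 2.06 rpm. Other cells had 25.4, 45.7, 25.2 and 17.9 rpm. Every NC value was above every value of other cells, and the pooled log2 ratio was 4.19 (4.17 to 4.21), or 18.3-fold. *NCAM1* was present in part of the other cells of every tag: 8.53%, 12.8%, 9.10% and 8.07% of them had 5 or more reads, which made 488 cells, and 28 of those also had 5 or more *KRT19* reads. In NCs the share was 73.7%.

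*CDH13* encodes T-cadherin, an atypical cadherin that is anchored to the membrane by lipid and has no tail for catenins. Its NC level was 806 rpm in A951, 679 rpm in A952, 145 rpm in A953 and 134 rpm in A954. In other cells it was 62.2, 75.4, 49.2 and 77.9 rpm. By pooled level the classes did not overlap, but the log2 ratio shrank from 3.70 in A951 and 3.17 in A952 to 1.56 in A953 and 0.79 in A954. In A953 and A954, 87.6% and 85.4% of the *CDH13* reads of NCs came from 5 cells. The *TBXT*-only cells were below the cells with neither gene in A951 (29.2 against 60.2 rpm) and A953 (31.4 against 49.2 rpm). They were above them in A952 (238 against 61.6 rpm) and A954 (89.7 against 77.7 rpm). At least 1 read was found in 96.5% of NCs and 93.0% of other cells, and 5 or more in 88.9% and 68.5%. The middle NC had 506 rpm and the middle other cell 41.9 rpm. Reads were assigned over whole genes, introns included, and spliced and unspliced *CDH13* reads cannot be told apart in these values.

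*KRT19*, *CDH2*, *CDH13* and *NCAM1* were found together in part of the NCs. All 4 had 5 or more reads in 103 NCs, or 30.1%, and 3 of them in a further 149, or 43.6%. In A951, A952 and A953 the share with all 4 was 31.9%, 31.6% and 21.4%, the last being 3 of 14 cells. In A954 it was 0 of 12, which allows up to 26.5% by the exact interval, and 8 of the 12 had 1 of the 4 genes. Among other cells, 6 had all 4 genes, or 0.113%, and those 6 were all in A952. Within NCs, 78.7% of cells with *KRT19* at this limit had *NCAM1*, against 25.0% of the 32 cells without it, and 43.5% against 9.38% had *CDH2*. These shares also compare tags, since 19 of the 32 cells were in A953 and A954: within A952, *CDH2* was found in 102 of 236 cells with *KRT19* and in 3 of 11 without it.

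*GJA1* encodes connexin 43, the most widespread gap junction protein of skeletal tissue. NCs had 1289 rpm in A951, 1244 rpm in A952, 1798 rpm in A953 and 750 rpm in A954. Other cells had 490, 497, 988 and 551 rpm. By pooled level NCs were higher within each tag. The NCs of A954 lay below the other cells of A953, so the classes overlapped across tags. In A954, 59.3% of the *GJA1* reads of NCs came from 1 cell. The 10 *TBXT*-only NCs of that tag had 315 rpm, below the 550 rpm of cells with neither gene. The 2 NCs with both genes had 5724 rpm. The middle NC of A954 had 427 rpm and the middle other cell 216 rpm. The log2 ratio was 1.39, 1.32, 0.86 and 0.44 in A951 to A954, and 0.97 (0.96 to 0.98) with tags pooled, where other cells came mostly from A953 and A954. Of NCs 93.6%, and of other cells 70.4%, had 5 or more reads. In the middle NC *GJA1* was at 804 rpm and in the middle other cell at 245 rpm, and the highest single values, 11199 and 14030 rpm, were of the same order.

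*CTNNB1*, which encodes beta-catenin, was the only member with a lower pooled level in NCs. NCs had 149 rpm in A951, 116 rpm in A952, 204 rpm in A953 and 321 rpm in A954, and other cells had 239, 228, 201 and 220 rpm. Lower pooled levels were thus confined to A951 and A952, the tags with most NCs. The classes were level in A953 and in reverse order in A954. In A953, 42.7% of the *CTNNB1* reads of NCs came from 1 cell. The middle NC of that tag had 155 rpm and the middle other cell 112 rpm. The pooled log2 ratio was -0.68 (-0.71 to -0.65), short of 2-fold. Without A952 it was -0.21. In the 310 cells with both *KRT19* and *TBXT* the level was 121 rpm, below the cells with neither gene in each tag (150, 115, 93.9 and 141 against 239, 232, 201 and 221 rpm), though A953 and A954 have 5 and 2 such cells. The *TBXT*-only cells of A953 and A954 had 285 and 336 rpm, and in the 53 *KRT19*-only cells it was 117 rpm. The share of cells with 5 or more reads was 60.2% in NCs and 74.4% in other cells.

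*CDH11* encodes cadherin 11, a type II cadherin of mesenchymal and bone-forming cells. NCs had 22.1, 42.1, 16.0 and 6.42 rpm in A951 to A954, and other cells 26.5, 27.2, 25.6 and 18.1 rpm. NCs were higher in A952 alone. The pooled log2 ratio of 0.64 became -0.27 without A952, and 1 cell held 12.9% of all *CDH11* reads of NCs. Few cells of either class had 5 or more reads, 19.01% of NCs and 12.5% of other cells, and the latter share was nearly the same in each tag, between 12.1% and 13.3%.

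The other genes of cell junctions, adhesion and filaments were taken from lists of 185 genes, of which 148 were in the matrix and 126 were found in 1% or more of the cells. Of these 126 genes, 40 were at least 2-fold higher in NCs, or 31.7%, against the 22.9% of all genes, and 21 were 2-fold lower, or 16.7%, against 12.0%. Their median log2 ratio was 0.21. The lists were chosen with earlier results of these data known as well, so these shares are descriptions. The counts of each list below stand beside the same 22.9% and 12.0% of all genes. The share higher was 72.7% for desmosomes and 8.33% for type II cadherins. It was near that of all genes for atypical cadherins and protocadherins (22.2%), other intermediate filaments (25.0%) and immunoglobulin-type molecules and nectins (26.9%). The lists thus differed widely among themselves. For genes of few reads the values of the 14 and 12 NCs in A953 and A954 swing widely. By level, some of the 2-fold genes named below went against their pooled direction. Among them were *CDH10*, *GJB6*, *NES* and *KRT80* in A953, *PCDH7*, *DES* and *F11R* in A954, and *CDH26*, *CLDN11* and *KRT23* in both. For the other such genes this is given where they are named. *KRT80* was at 0.186 rpm in NCs against 0.4295 rpm in A953, and *F11R* and *KRT23* had no read in the NCs of A954.

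**Figure D4:**
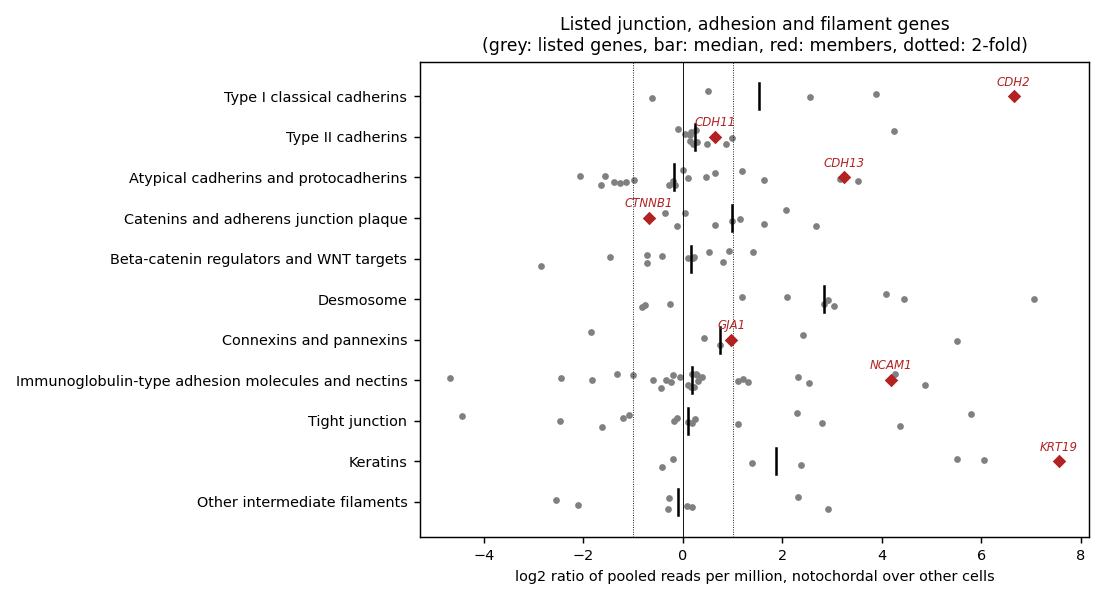
Log2 ratio of pooled rpm in NCs over other cells for the listed genes (grey points, with a black bar at the median of each list) and for the 7 members (red diamonds), with dotted lines at 2-fold. The desmosome list has its median at 2.84, the other lists have theirs between -0.17 and 1.88, and KRT19 and CDH2 lie above the other genes of their lists.

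Desmosomes are junctions that anchor keratin filaments to the membrane. Of 11 desmosome genes, 8 were at least 2-fold higher in NCs and none lower, with a median log2 ratio of 2.84. *PKP2*, a plakophilin of the desmosomal plaque, stood at 163 against 1.22 rpm, with log2 ratios of 6.59, 5.43, 7.63 and 4.69 in A951 to A954. *EVPL*, the plaque protein envoplakin, stood at 8.79 against 0.404 rpm. *DSP*, which encodes desmoplakin and was picked after its values were seen, stood at 547 against 66.8 rpm, and at 618 rpm in cells with both *KRT19* and *TBXT*. The 32 *TBXT*-only cells had 21.5 rpm of *DSP*, below the 64.7 rpm of cells with neither gene. In the 12 NCs of A954, *DSP*, *DSC2*, *PKP1* and *JUP* were below the other cells, with log2 ratios of -0.39, -0.89, -1.23 and -2.60, and *PKP1* was also below them in A953, at -0.82. The 3 genes under 2-fold, *DSG1*, *DSG4* and *DSC1*, had at most 0.226 rpm in either class, and *DSG3*, which was among the 8, had 0.240 against 0.106 rpm.

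Among other keratins, 4 of 6 were higher and none lower. *KRT7*, a keratin of simple epithelia, stood at 16.99 against 0.256 rpm and *KRT80* at 17.4 against 0.379 rpm, both well above in A951 and A952. The other pair past 2-fold, *KRT1* and *KRT23*, did not hold in A951: *KRT1* was lower in A951 and A952, with log2 ratios of -0.20 and -1.10, and *KRT23* was lower in A951, at -1.16. By level *KRT23* was also lower in A953, at 0.186 against 0.201 rpm, so that it was higher in A952 alone. *KRT8*, *KRT14*, *KRT15*, *KRT17* and *KRT18* were not analysed here. Other intermediate filaments moved both ways, with 2 of 8 higher and 2 lower. *SYNM*, which encodes synemin, stood at 150 against 19.8 rpm, higher in every tag but A954, and *NES*, nestin, at 3.12 against 0.626 rpm. *GFAP*, the filament of astrocytes, was at 16.1 against 93.3 rpm, and *DES*, desmin, at 0.706 against 3.06 rpm.

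Of the type I cadherins beside *CDH2*, 2 of 4 were higher. *CDH1*, or E-cadherin, stood at 21.4 against 1.45 rpm and *CDH4*, or R-cadherin, at 50.8 against 8.64 rpm, but neither was higher in A954. Of 12 type II cadherins beside *CDH11*, 1 was higher and none lower, *CDH10* at 13.1 against 0.691 rpm, and their median log2 ratio was 0.23. Of 18 atypical cadherins and protocadherins, 4 were higher and 6 lower. *PCDH7* (25.7 against 2.24 rpm) and *CDH26* (15.3 against 1.72 rpm) had the largest ratios upward. *PCDH1* (4.17 against 17.6 rpm) and *CDH17* (0.253 against 0.790 rpm) had the largest downward.

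Plaque proteins of adherens junctions, which link cadherins to actin, were higher in 4 of 9 cases and never 2-fold lower. *VCL*, which encodes vinculin, was at 568 against 135 rpm, with log2 ratios of 1.32, 1.89, 1.80 and 1.35 across the tags. *CTNND2*, a catenin of the p120 family, was at 70.4 against 11.1 rpm. Among 12 regulators and targets of the beta-catenin pathway, 1 was higher and 2 lower. *APC*, part of the complex that degrades beta-catenin, stood at 55.6 against 20.8 rpm, higher in A951 and A952 alone. The feedback inhibitors *NKD1* and *AXIN2*, both known WNT targets, stood at 0.746 against 5.40 rpm and 2.77 against 7.63 rpm, lower in A951 to A953 and not in A954.

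Besides *GJA1*, 5 connexin and pannexin genes passed the limit on detection. *GJB6*, connexin 30, was at 36.1 against 0.790 rpm and *GJB2*, connexin 26, at 13.4 against 2.50 rpm, the latter with log2 ratios of 0.33, 3.10, -0.55 and -1.29 in A951 to A954. *GJA4*, connexin 37, was lower at 1.19 against 4.27 rpm. Immunoglobulin-type adhesion molecules and nectins split into 7 of 26 higher and 5 lower. *ALCAM*, also called CD166, stood at 841 against 29.0 rpm, with log2 ratios of 4.57, 4.09, 3.62 and 1.92, so that it was higher in every tag, as *NCAM1* was. *CADM3* was at 15.1 against 0.782 rpm. *ICAM2*, an adhesion molecule best known from endothelium, was at 0.280 against 7.15 rpm, and *NFASC*, which encodes neurofascin, at 1.95 against 10.6 rpm.

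Tight junction genes were divided evenly, with 5 of 15 higher and 5 lower. *F11R*, or JAM-A, stood at 22.3 against 0.403 rpm and *CLDN11*, the claudin of myelin and testis, at 29.9 against 1.46 rpm. *JAM2* stood at 10.0 against 55.3 rpm, and *CLDN20* had 0.0400 against 0.870 rpm, a level of few reads.

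The label of the NCs was checked against 7 markers that did not define them. *APOE*, *C3orf49*, *SRGN* and *NRN1* were at 9678, 2038, 660 and 464 rpm in NCs and at 138, 11.3, 8.30 and 3.91 rpm in other cells, but these 4 known NC markers were also named as markers of these very cells, and are no independent check. *SHH*, the hedgehog ligand of the notochord, was at 88.6 against 0.748 rpm. By tag, NCs had 33.7, 116, 1.86 and 0.611 rpm of *SHH* in A951 to A954, the last below the pooled other cells. *FOXA2* and *NOTO*, transcription factors of the embryonic notochord, went the other way or were near 0: *FOXA2* was at 0.840 against 5.50 rpm, and *NOTO* was found in 1 NC. The class is therefore best read as what its rule says, cells with *TBXT* reads.

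Other cell types were looked for with the same measure. Epithelial markers, which matter for a keratin, summed to 23.5 rpm over 6 genes in NCs and 7.11 rpm in other cells, and *CDH1* gave 21.4 rpm of the former. *EPCAM*, which defines epithelial cells, was found in 3 of 342 NCs at 0.133 rpm, against 0.348 rpm in other cells. Endothelial markers summed to 32.2 rpm in NCs and 151 rpm in other cells, mostly *ERG*, which chondrocytes also express, while *CDH5* was at 0.253 and 0.181 rpm. Immune markers summed to 26.0 and 23.3 rpm, led by *CD68*, with *PTPRC* at 1.20 and 0.702 rpm. Pericyte or smooth muscle markers summed to 86.1 and 35.2 rpm, led in NCs by *ACTA2*, and *CNN1* had no read in NCs. Neuronal or Schwann markers summed to 14.6 and 4.10 rpm, and 2 erythroid genes to 0.0666 and 0.0956 rpm. Chondrocyte markers summed to 19471 rpm in NCs and 32993 rpm in other cells. *COL2A1* was at 3244 against 20088 rpm. By tag, NCs had 3413, 1525, 8132 and 22616 rpm of *COL2A1* in A951 to A954, the last above the pooled other cells. *ACAN*, the aggrecan core protein, and *SOX9* were higher in NCs, at 13306 against 3961 rpm and 1028 against 346 rpm.

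For each member, the 3 genes most like it across the 342 NCs were found by Pearson's r of log2(rpm + 1) among 9705 genes. The cells share 1 library and differ in depth, so these values are descriptions. *KRT19* was most like *APOE* (r 0.80, Spearman's rho 0.38), *LYST* (r 0.65) and *C3orf49* (r 0.65). The 32 NCs under 5 *KRT19* reads were low in *APOE* as well, as given above, and r weighs them more than rho does. *GJA1* was most like *SLC12A2* (r 0.45, rho 0.51), a chloride cotransporter, followed by *FLT1* (r 0.38) and *C3orf49* (r 0.37). *CDH13* came nearest to *C3orf49* and *SPOCK3* (r 0.36 each) and *TNNT2* (r 0.34), and *NCAM1* to *APOE* (r 0.36), *ALCAM* (r 0.35) and *ZNF385B* (r 0.33). No gene reached an r of 0.30 with *CDH2*, *CDH11* or *CTNNB1*. The members were loosely related to each other, and the highest r, 0.29, was that of *KRT19* with *CDH13* and with *NCAM1*.

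Across the 5311 other cells and 9302 genes, *KRT19* was again nearest to a gene of the NC profile, *C3orf49* (r 0.37, rho 0.08). *LYPD1* (r 0.36, rho 0.11) and *SRGN* (r 0.29, rho 0.09) followed. The rho values were low, and 89.8% of the *KRT19* reads of these cells lay in 53 cells. *CDH13* had other neighbours there than in NCs, among them *LCK* (r 0.39, rho 0.41), a lymphocyte kinase, and *ATP11A* (r 0.31). Reads that map to several places were counted, and whether the *CDH13* and *LCK* reads lie in exons was not tested. *GJA1* was nearest to *SOD2* (r 0.33), the mitochondrial superoxide dismutase, and *CLU* and *EPS8* (r 0.29 each). *CTNNB1* was nearest to *SLC7A5* (r 0.25), *FURIN* (r 0.24) and *TIMP3* (r 0.23). For *CDH2*, *CDH11* and *NCAM1* the largest r was 0.12, 0.11 and 0.17. Depth itself, as log10 reads per cell, had an r of 0.30 with *CTNNB1*, 0.24 with *CDH13* and 0.22 with *GJA1*. With *NCAM1*, *CDH11*, *CDH2* and *KRT19* it was 0.16, 0.13, 0.09 and 0.01. For *CTNNB1* and *CDH11* depth was thus above the nearest gene, and its part in these likenesses was not tested.

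The members were last described across groups of cells defined by 5 or more reads of 1 other gene. Within NCs, the 75 cells with *SHH* had 796 rpm of *GJA1* and the 267 cells with fewer reads 1428 rpm, a log2 ratio of -0.84 that was -0.94 within A952, the tag with enough NCs on both sides. *NCAM1* was 368 against 483 rpm in this split and *KRT19* 1110 against 919 rpm. The *SHH* cells were deeper, with a median of 219948 against 177391 reads.

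**Figure D5:**
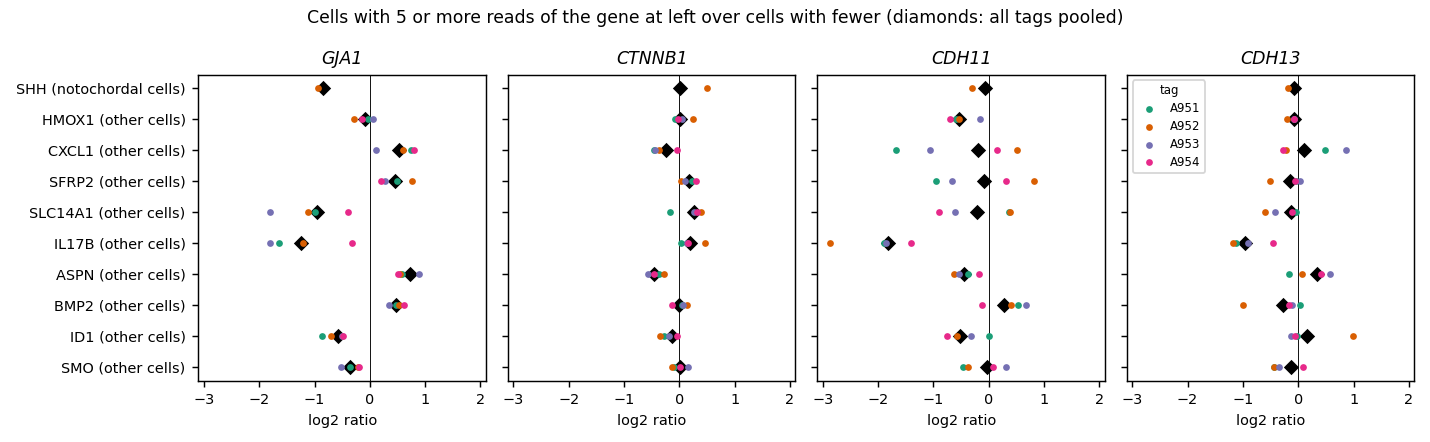
Log2 ratio of pooled rpm of GJA1, CTNNB1, CDH11 and CDH13 in cells with 5 or more reads of the gene at left over cells with fewer, in NCs for SHH and in other cells for the rest, for all tags together (diamonds) and for each tag (points, where both sides had at least 20 cells). GJA1 has the same sign in all 4 tags for 8 of the 9 splits of other cells, the exception being HMOX1.

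Among other cells, the log2 ratio of *GJA1* had 1 sign in all 4 tags in 8 of 9 splits, against 5 of 9 for *CTNNB1* and 3 of 9 for each of *CDH11*, *CDH13* and *NCAM1*. *GJA1* was lower in all 4 tags in the 172 cells with *IL17B*, at 281 against 669 rpm, and in the 285 cells with *SLC14A1*, a urea transporter, at 344 against 667 rpm. The 658 cells with *ID1*, a target of BMP signals, had 456 against 683 rpm, and the 1175 cells with *SMO*, the hedgehog signal transducer, had 539 against 688 rpm. Higher values in all 4 tags were found in the 1444 cells with *ASPN*, a small leucine-rich protein of the matrix, at 877 against 528 rpm, and in the 3683 cells with *BMP2*, at 689 against 495 rpm. Cells with *CXCL1* and *SFRP2* had 917 against 637 rpm and 866 against 632 rpm. Cells with *HMOX1* differed little, at 628 against 663 rpm. The cells past the limit were deeper in all 9 splits, whether *GJA1* was higher or lower in them. With *ASPN* the median was 254426 against 185783 reads and with *BMP2* 227572 against 144436 reads. The part of depth in these ratios was not tested. Nearly all other cells, 5296 of 5311, had 5 or more reads of *PRG4*, so that gene gave no usable split.

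In the other members the splits with 1 sign in all 4 tags were as follows. *CDH11* was lower with *HMOX1*, *ASPN* and *IL17B*, and *CDH13* with *HMOX1*, *SLC14A1* and *IL17B*. *CDH11* was at 6.65 rpm in cells with *IL17B* against 23.6 rpm, with log2 ratios of -1.89, -2.87, -1.85 and -1.41 in A951 to A954, and *CDH13* was at 35.5 against 69.5 rpm in the same split. The *IL17B* cells were by far the deepest, with a median of 372336 against 195665 reads, and 80.2% of them had 5 or more *CDH13* reads against 68.1% of the rest, so level and share went opposite ways. *CTNNB1* was lower with *ASPN*, at 176 against 242 rpm, and also with *CXCL1* and *ID1*, and higher with *SFRP2* and *IL17B*. *NCAM1* was higher with *SFRP2*, at 37.6 against 24.0 rpm, and lower with *HMOX1* and *ASPN*. *CDH2* and *KRT19* were near their background level in most of these cells and are not described by split, since 89.8% of the *KRT19* reads lay in 53 cells.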

How the data were processed

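The authors aligned the TAS-seq reads with HISAT2 2.2.1, assigned them by strand to whole genes with featureCounts 2.0.2, counting multi-mapped and overlapping reads too, and deposited the raw counts, whole numbers of reads for each gene in each cell, not normalized and with PCR copies kept. The genome build is not given in the sources used here, so no coordinates are printed. Cells with a single tag, 200 to 9000 genes and under 5% mitochondrial reads (13 genes) were kept, 5653 of 5723 columns. Of the rest, 49 had no single tag, 20 were removed for mitochondrial reads and 1 for its genes. Doublets of 2 tags were thereby removed, and those within a tag could not be recognised. A further 1358 columns, of a matrix that the sample labels do not list, were not used, and the tag library holds no gene expression.

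Depth ranged from 24907 to 1290096 reads per cell (median 198432). Levels are pooled reads per 1000000 reads with exact Poisson intervals, and shares have exact Clopper-Pearson intervals (95%). In a ratio a class was set to at least 3 reads. The members, lists and alternatives were chosen with earlier results of these data known. Named were all members, the 2 listed genes with the largest log2 ratio past 2-fold in each direction from each list (members left out, detected in at least 1% of cells), the 3 genes most like each member among those detected in at least 10% of cells (1 of them is not reported here), and the genes that defined crossed groups of cells. Python 3.11.15, numpy 2.4.6 and scipy 1.17.1 were used, and the ratios were tested on simulated counts.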

Additional observations from a re-analysis of the deposited data

Results flagged for a closer look

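Over the 4 tags, the level and the share of cells with 5 or more reads of each member in other cells made 14 groups of values, and in 3 of them 1 tag stood apart from the rest, its gap to the nearest tag being larger, against the whole range, than Dixon's 95% limit for 4 values. About 1 in 20 such groups is picked out by chance. *CDH2* was at 2.24 rpm in the other cells of A952, against 0.846 to 0.886 rpm in the other tags. The share of other cells with 5 or more *CDH2* reads was 1.02% in A952 (9 of 878 cells) and at most 0.216% elsewhere. A952 was also the tag with most *KRT19*-only cells, 35 of 53, and 8 of the 15 other cells with *CDH2* at this limit had *KRT19* as well. *GJA1* was at 988 rpm in the other cells of A953, against 490 to 551 rpm in the other tags, and 77.3% of these cells had 5 or more reads. As no source ties a tag to a tissue, a difference between tissues and one between monkeys cannot be told apart here.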

How the results depend on the processing

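No paired analysis was possible because the library is 1 sample and its tags are not labelled replicates, so ratios within tags are descriptions. Their mean over A951 and A952 was 6.34 for *KRT19*, 6.43 for *CDH2*, 3.75 for *NCAM1*, 3.43 for *CDH13*, 1.36 for *GJA1*, 0.18 for *CDH11* and -0.83 for *CTNNB1*. Each member was recomputed under 17 alternatives, of which the one with both *KRT19* and *TBXT* as the limit was chosen after seeing the data. The log2 ratio ranged from 5.89 to 8.61 for *KRT19* (11.03 with *KRT19* itself in the limit, which fixes that value), from 3.08 to 7.08 for *CDH2*, from 2.75 to 5.43 for *NCAM1* and from 1.84 to 3.48 for *CDH13*, all past 2-fold. *GJA1* ranged from 0.34 to 2.30 and passed 2-fold at 8 of the 17. *CTNNB1* ranged from -1.10 to -0.21. *CDH11* ranged from -0.27 to 0.85, below 0 without tag A952 alone. Between 4 and 5 members were 2-fold higher under each alternative. Other counts moved by over 1.5 times as follows. With 1 *TBXT* read as the limit there were 866 notochordal cells, and 2 listed genes were 2-fold lower. Without tag A952 there were 95 notochordal cells. With means of log2(rpm + 1) over cells, which weigh cells without a read more, 1 member (*CTNNB1*) and 3 listed genes were 2-fold lower and 13 listed genes 2-fold higher. The number of notochordal cells, 14 and 12, limits what can be said of genes with few reads in A953 and A954.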
